A study of Mus musculus with 39 samples.

Results

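The genes described here are 36 antioxidant genes of the mouse, 15 of them textbook targets of NRF2, and their RNA level was followed in CD11b+ cells of the cerebrum of wild-type (WT) and 5XFAD mice. Members were found by gene symbol, and all 36 occurred once in the female table of 46333 genes and once in the male table of 54532 genes. The 39 libraries were bulk RNA-seq libraries of 8 groups, which were WT (C57Bl6 in the design text) and 5XFAD mice of each sex kept in normoxia (NX, 21% O2) or given chronic intermittent hypoxia (CIH). In the methods, WT dams were C57BL/6J and were bred to 5XFAD males of a B6SJL line. For CIH, per the design text of the series, oxygen went between 6.5% and 21% in intervals of 90 seconds for 8 hours of each sleep phase from 4 months of age, whereas the methods of the study give a slightly lower oxygen level and a longer daily period. Females were collected at 10 months and males at 8 months, so that sex, age and length of exposure cannot be told apart. Each group held 5 libraries except the female WT NX group, which held 4, where the methods state 5 samples for each group. The 5XFAD line carries transgenes driven by a neuronal (Thy1) promoter and deposits amyloid, and CD11b beads also take other myeloid cells than microglia.

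Cells keep peroxides and other oxidants low with layered enzyme systems. Superoxide dismutases turn superoxide into hydrogen peroxide, and catalase breaks hydrogen peroxide down without a donor. Peroxiredoxins and glutathione peroxidases reduce peroxides with electrons that thioredoxin or glutathione deliver and that NADPH pays for. The transcription factor NRF2, encoded by Nfe2l2, raises many of these genes through the antioxidant response element, and KEAP1 holds NRF2 down by passing it to degradation until electrophiles or the autophagy adaptor p62 (Sqstm1) release it. In microglia these systems meet the superoxide that the cells make themselves when they phagocytose.

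The antioxidant response element was searched for in the promoters because it is the sequence that ties the regulator to its targets. RefSeq promoter windows of build GRCm38.p6, 250 bases before to 50 bases after each start site, were found for 32 of the 36 members (44 windows), and those of Hmox1, Gclc, Gsr and Prdx6 were not searched here. The core TGACNNNGC, on either strand, stood in 9 of the 44 member windows (20.5%), against 12.4% of all 32851 windows of the same 300 bases, and the 9 genes were Nfe2l2, Gclm, Txnrd1, Srxn1, Prdx1, Sod1, G6pdx, Pgd and Mgst1. The form TGACTCAGC, which is 1 spelling of the core and is in 0.454% of all windows, was met in 1 member, Prdx1, at the site already counted. The windows shown here, read 5′ to 3′ on the strand of the gene with the core in capitals, are of 3 genes whose RNA was higher in 5XFAD mice of both sexes under CIH (Prdx1, Srxn1 and, for 1 of its 3 start sites, Txnrd1) and of 1 that was not called between genotypes (Gclm). In each of them the core lay on the opposite strand, so that the capitals are its reverse complement. A match of letters is a description of the window and not a site of binding.
Prdx1 (chr4:116685349-116685648, plus strand): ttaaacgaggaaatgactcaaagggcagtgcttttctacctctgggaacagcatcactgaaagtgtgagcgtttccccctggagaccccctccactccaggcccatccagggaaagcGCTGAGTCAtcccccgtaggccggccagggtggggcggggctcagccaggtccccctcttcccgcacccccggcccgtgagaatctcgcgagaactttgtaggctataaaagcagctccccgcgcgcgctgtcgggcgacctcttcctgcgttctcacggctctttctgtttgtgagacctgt
Srxn1 (chr2:152105274-152105573, plus strand): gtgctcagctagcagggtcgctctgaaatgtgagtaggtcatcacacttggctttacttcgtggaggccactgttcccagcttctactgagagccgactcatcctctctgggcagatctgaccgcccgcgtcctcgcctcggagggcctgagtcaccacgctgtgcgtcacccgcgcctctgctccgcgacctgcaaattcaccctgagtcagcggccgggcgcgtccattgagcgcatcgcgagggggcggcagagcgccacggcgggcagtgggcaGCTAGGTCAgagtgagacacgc
Txnrd1 (chr10:82858956-82859255, plus strand): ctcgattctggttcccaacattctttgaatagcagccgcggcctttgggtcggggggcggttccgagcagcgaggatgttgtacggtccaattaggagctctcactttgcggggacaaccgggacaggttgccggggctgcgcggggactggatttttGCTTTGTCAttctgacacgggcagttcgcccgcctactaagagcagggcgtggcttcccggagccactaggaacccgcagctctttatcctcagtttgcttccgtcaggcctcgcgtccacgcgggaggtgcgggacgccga
Gclm (chr3:122245307-122245606, plus strand): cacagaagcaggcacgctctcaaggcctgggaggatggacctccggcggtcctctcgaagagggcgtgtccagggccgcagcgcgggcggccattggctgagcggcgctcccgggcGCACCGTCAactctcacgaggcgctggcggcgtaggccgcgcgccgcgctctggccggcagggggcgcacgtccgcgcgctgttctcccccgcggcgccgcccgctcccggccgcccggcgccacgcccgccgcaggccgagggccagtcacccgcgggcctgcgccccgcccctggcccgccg
The first letter of the core, as printed, was 133 bases before the start site in Prdx1, 92 before it in Txnrd1 and 134 before it in Gclm, and at base 29 of the transcript in Srxn1.

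Libraries held 14731683 to 25906121 gene counts in females and 13457293 to 23095627 in males. Summed levels of 7 microglia markers were 22300 to 34310 CPM in the 8 groups (CPM, counts scaled to sequencing depth with TMM normalisation, the scale of all levels below unless FPKM is named), and no marker of that list was at 0. In females every 5XFAD library lay below every WT library for them, at 22940 to 25650 against 27630 to 31630 CPM. In males this was so too, at 22300 to 26480 against 26970 to 34310 CPM. The part of this difference in the genotype results below was not tested. Markers of plaque-associated microglia (Cst7, Itgax, Clec7a, Lpl and Gpnmb) summed to 78.9 to 208 CPM in WT libraries and 3335 to 9832 CPM in 5XFAD libraries, with 2 exceptions. The library labelled F 5XFAD NX 4 held 225 CPM of them, and F WT NX 1 held 1178 CPM. Microglia markers were at 24080 CPM in the first and 27720 CPM in the second, and border macrophage markers at 85.3 and 316 CPM. Both lay within the range of the other female libraries of the labelled genotype. Astrocyte and endothelial markers of F 5XFAD NX 4 (139.5 and 52.2 CPM) lay below that range, and endothelial markers of F WT NX 1 (131 CPM) above it. Whether these 2 libraries carry the right label cannot be settled from the files, so the female normoxia values are those of the libraries as labelled. In males, the libraries M 5XFAD NX 4 and 5 carried these markers at 5067 and 4737 CPM but had a mean log2 CPM of the 36 members of 5.29 and 5.28, against 5.80 to 5.92 in the other 3 libraries of their group. The counts, the medians and the single genes named that rest on these 4 libraries are given with and without them where that moved a value by over 1.5 times or changed a call. A list of 10 immediate early and heat shock genes that rise when cells are handled (isolation response, Fos, Jun and Hspa1a among them) summed to 694 to 4494 CPM over all libraries. Since the samples are bulk RNA, fewer cells of a type and less RNA per cell cannot be told apart.

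**Figure D1:**
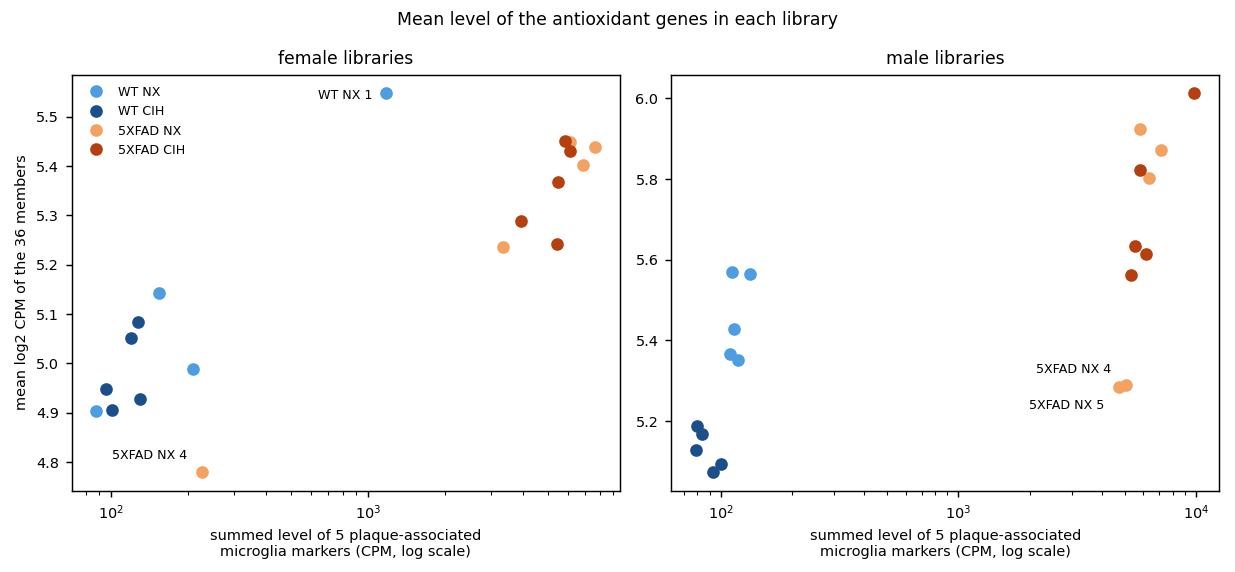
Each point is a library, with the summed CPM of 5 plaque-associated microglia markers on a logarithmic x axis and the mean log2 CPM of the 36 antioxidant genes on the y axis, females left and males right. WT NX 1 (1178 CPM of the markers, member level 5.55) and 5XFAD NX 4 (225 CPM, 4.78) lie apart among the females, and 5XFAD NX 4 and 5 (5.29 and 5.28) lie below the rest of their group among the males.

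Per transcript length, the leading member in WT NX mice was Gpx1, the cytosolic glutathione peroxidase, at 235 ± 47.9 FPKM in females (SD, n = 4) and 178 ± 40.5 FPKM in males (SD, n = 5). Txnip, which binds and blocks thioredoxin, was next at 201 ± 4.12 FPKM in females and 160 ± 15.8 FPKM in males, and the means of these neighbours in the order lay within the spread of Gpx1 in both sexes. Nfe2l2 stood at rank 3 of the 36 in female WT NX mice (113 ± 5.59 FPKM) and at rank 6 in males (56.3 ± 3.68 FPKM), while its inhibitor Keap1 was at rank 22 in both (15.7 ± 0.548 and 10.9 ± 2.03 FPKM). The lowest levels were those of Nqo1, the quinone reductase that is a common reporter of NRF2 in other tissues, and of Slc7a11, the cystine importer. Nqo1 was at 0.270 ± 0.154 FPKM in females and 0.288 ± 0.238 in males, and Slc7a11 at 1.24 ± 1.19 and 0.268 ± 0.0524. Without F WT NX 1 the female level of Slc7a11 was 0.647 ± 0.0751 FPKM (SD, n = 3), and the ranks of Gpx1, Txnip, Nfe2l2, Keap1, Slc7a11 and Nqo1 were as before. With 0 to 23 counts of Nqo1 per library, no difference in it was detectable at this depth, and it passed the filter on low counts only where female WT NX and WT CIH libraries were compared, and in the female interaction.

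The comparison that moved most members was 5XFAD against WT under CIH, which asks how CD11b+ cells of the 2 genotypes differ when all mice had the hypoxia. In females 24 of the 35 members tested were higher in 5XFAD mice and 2 were lower, and in males 25 were higher and 2 lower, at FDR below 0.05 (edgeR quasi-likelihood F test with Benjamini-Hochberg adjustment over all genes, the rule by which a gene is called here). Of all genes tested, 26.2% were called higher and 25.7% lower in females, and 25.3% higher and 23.7% lower in males, so that the members' share called higher was 68.6% and 71.4% and their share called lower 5.71% in each sex. The median log2 fold change (log2FC) of the members was 0.41 in females and 0.70 in males, against -0.02 and -0.06 over all genes. The 22 members called higher in both sexes were 22 of the 24 female calls and 22 of the 25 male calls, and Gclc and Txnip were lower in both. Slc7a11 and Gsr were called higher in females alone and Blvrb, Glrx and Prdx3 in males alone, differences between the sexes that were not tested. When libraries were scaled by their total alone, the median of all genes moved to -0.21 in females and -0.43 in males, and the calls were then 19 higher and 7 lower in females and 17 higher and 3 lower in males. Of all genes, 17.5% were then higher and 42.2% lower in females, and 15% and 45.8% in males. Calls with an absolute log2FC above 1 were 5 higher (14.3%) and 1 lower (2.86%) in females and 10 higher (28.6%) and 0 lower in males, against 8.83% and 11.8% of all genes in the higher direction and 4.12% and 6.88% in the lower. In males short genes had higher values than long ones in this comparison, with a median of 0.31 under the lower quartile of length and -0.28 above the upper, and 12 members were in the first class and 4 in the last. With that trend taken out, 21 members were higher and 2 lower, against 25% and 23% of all genes. Astrocyte markers moved with genotype as well (7 markers, 160 to 200 CPM in female WT CIH against 227.5 to 642 CPM in 5XFAD CIH libraries, and 156 to 225 against 221 to 607 CPM in males), and border macrophage markers were at 142.5 to 300.3 against 68.3 to 128 CPM in females and 146 to 316.5 against 101 to 189 CPM in males. Endothelial markers were at 45.6 to 128 against 152 to 224 CPM in females and 59.6 to 132 against 106 to 167 CPM in males. Oligodendrocyte markers had medians of 189 against 290.2 CPM and 254 against 311 CPM. In females, neutrophil markers had medians of 67.8 against 37.7 CPM (130 against 144 CPM in males), erythroid markers of 37.5 against 23.9 CPM (81.9 against 62.5 CPM in males) and isolation response genes of 1633 against 2503 CPM (1276 against 1164 CPM in males). Their part in these results was not tested.

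**Figure D2:**
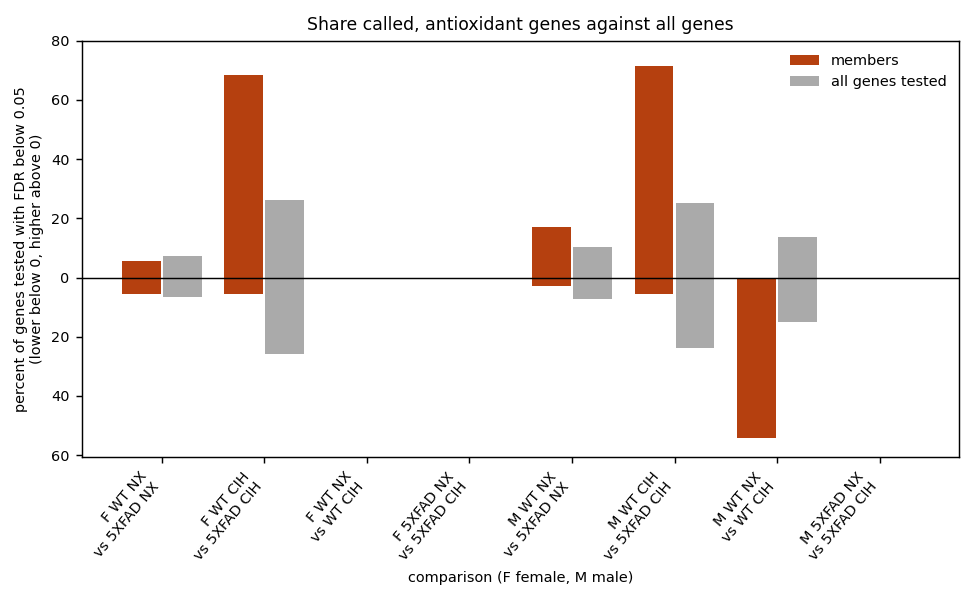
Bars give the percent of genes tested that were called (FDR below 0.05) higher (above 0) or lower (below 0) in the second group of each comparison, for the members (red) and for all genes (grey). Members exceeded all genes in the higher direction under CIH (68.6% against 26.2% in females, 71.4% against 25.3% in males) and in the lower direction in male WT mice after CIH (54.3% against 15%).

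The peroxiredoxins, thiol peroxidases that reduce hydrogen peroxide, included Prdx4, the member with the largest log2FC in this comparison in both sexes. Of the 6, 5 rose in female 5XFAD CIH mice (median log2FC 0.77) and all 6 in males (median 1.29). Prdx4, the form of the endoplasmic reticulum, was at 16.8, 18.2, 17.4, 20.05 and 18.98 CPM in the female WT CIH libraries and at 75.8, 55.6, 52.3, 63.8 and 66.9 CPM in 5XFAD CIH. In males it was at 18.5, 24.1, 23.03, 25.04 and 28.6 CPM in WT CIH and at 117, 72.5, 111, 118 and 172 CPM in 5XFAD CIH. No library of one genotype overlapped the other, and the log2FC was 1.79 ± 0.10 (SE, adjusted p = 1.48e-08) in females and 2.32 ± 0.19 (adjusted p = 1.99e-07) in males. Prdx1, the abundant cytosolic form, was at 72.2, 71.2, 65.5, 85.0 and 83.6 CPM in female WT CIH and at 188, 144, 144, 167 and 196 CPM in 5XFAD CIH libraries. In males its levels were 86.3, 82.5, 89.7, 87.3 and 95.3 CPM in WT CIH and 219, 215, 257, 297 and 385 CPM in 5XFAD CIH. Every 5XFAD CIH library was thus above every WT CIH library, with a log2FC of 1.17 ± 0.10 (adjusted p = 9.85e-07) and 1.65 ± 0.14 (adjusted p = 4.33e-07). Prdx6, which works with glutathione in place of thioredoxin, was at 19.2 to 21.1 CPM in female WT CIH and 45.4 to 59.99 CPM in 5XFAD CIH libraries, and at 19.3 to 27.99 against 57.1 to 88.8 CPM in males. Its log2FC was 1.42 ± 0.08 (adjusted p = 9.99e-09) and 1.53 ± 0.14 (adjusted p = 5.48e-07). Prdx2 and the mitochondrial Prdx5 rose less in females (0.37 ± 0.10 and 0.31 ± 0.10, with overlapping libraries) than the values of 1.05 ± 0.14 and 1.05 ± 0.16 in males, a difference between the sexes that was not tested. Prdx3, the other mitochondrial form, had a log2FC of 0.15 in females, not called, and 0.47 in males.

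**Figure D3:**
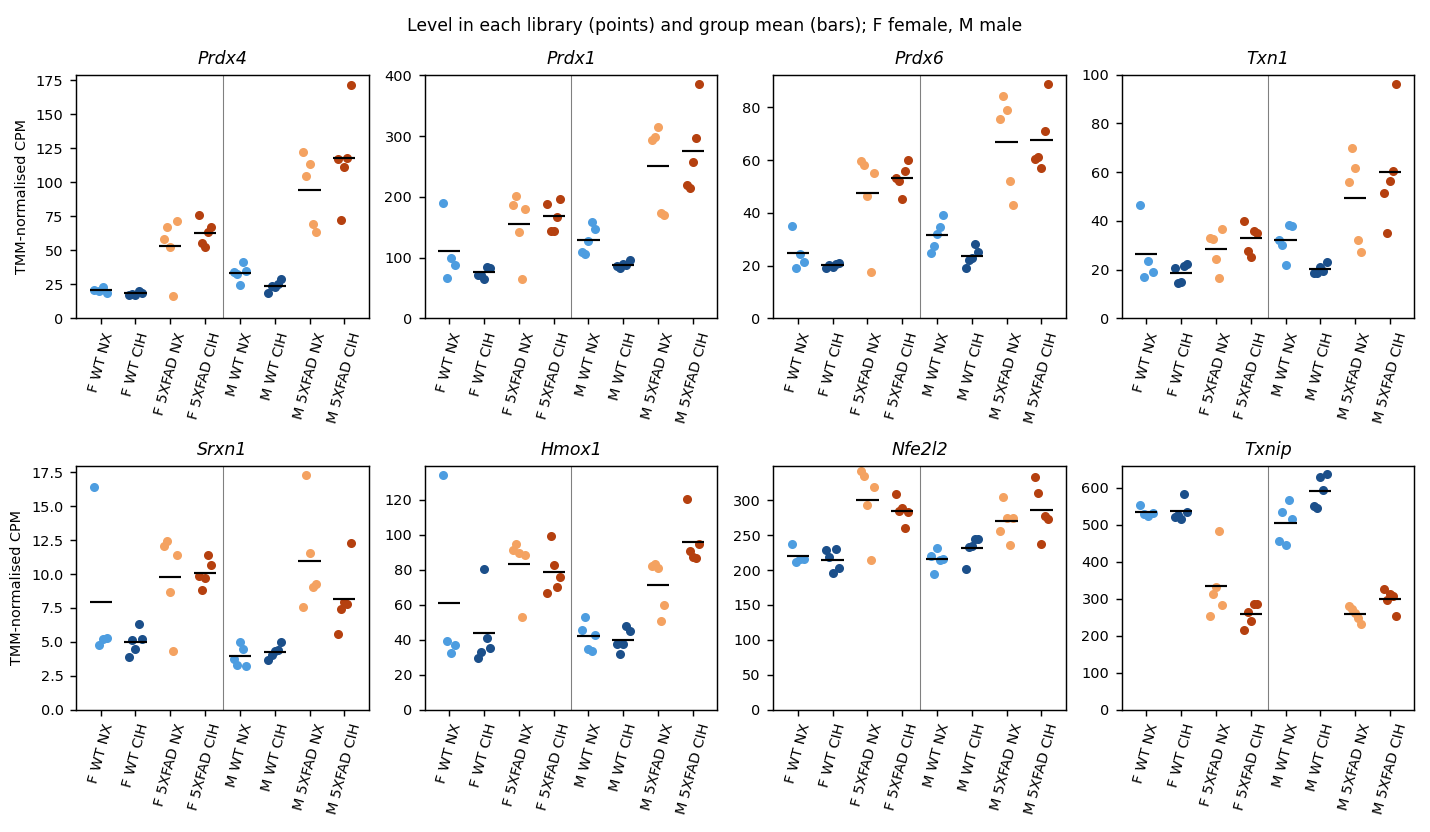
Points are the TMM-normalised CPM of single libraries in the 8 groups and bars the group means, for 8 members, with females left and males right of the grey line in each panel. Prdx4, Prdx1 and Prdx6 separate 5XFAD CIH from WT CIH libraries in both sexes, Txnip runs the other way, and F WT NX 1 stands high for Srxn1 (16.4 CPM) and Hmox1 (134 CPM).

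Thioredoxin genes, which pass electrons to the peroxiredoxins, rose with them. Txn1, the cytosolic thioredoxin, was at 20.6, 14.5, 14.9, 21.6 and 22.3 CPM in female WT CIH and at 40.1, 27.6, 25.2, 35.9 and 35.1 CPM in 5XFAD CIH libraries. In males the levels were 18.5, 18.4, 21.2, 19.4 and 23.1 CPM in WT CIH and 51.6, 34.96, 56.2, 60.6 and 96.0 CPM in 5XFAD CIH. The groups did not overlap, and the log2FC was 0.82 ± 0.15 (adjusted p = 0.000574) and 1.58 ± 0.20 (adjusted p = 1.85e-05). Srxn1, the sulfiredoxin that restores overoxidised peroxiredoxins, was at 3.87 to 6.32 CPM in female WT CIH and 8.83 to 11.4 CPM in 5XFAD CIH libraries, and at 3.63 to 4.96 against 5.56 to 12.3 CPM in males. It rose by 1.03 ± 0.14 (adjusted p = 4.33e-05) and 0.96 ± 0.22 (adjusted p = 0.00215) on the log2 scale. The cytosolic thioredoxin reductase Txnrd1 rose by 0.35 and 0.36, where the male value was -0.011 with libraries scaled by their total alone. Its mitochondrial relative Txnrd2 had a log2FC of -0.01 and 0.16 and was not called, and the mitochondrial thioredoxin Txn2 rose by 0.55 and 0.98.

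Txnip, the inhibitor of thioredoxin, and Gclc, the catalytic subunit of the first enzyme of glutathione synthesis, were the members that fell. Txnip was at 522, 528, 516, 584 and 535 CPM in female WT CIH and at 216, 265, 239, 287 and 285 CPM in 5XFAD CIH libraries. In males it was at 552, 545, 628, 594 and 639 CPM in WT CIH and at 326, 298, 313, 308 and 255 CPM in 5XFAD CIH. The log2FC was -1.04 ± 0.08 (adjusted p = 2.54e-07) and -0.97 ± 0.10 (adjusted p = 1.6e-06), and no libraries overlapped. Gclc was at 93.6 to 97.6 CPM against 58.8 to 72.2 CPM in females and at 65.9 to 90.7 against 43.2 to 52.7 CPM in males, a fall to 0.693 and 0.595 of the WT level (adjusted p = 4.05e-06 and 4.04e-05). Its partner Gclm, the modifier subunit, had a log2FC of -0.04 and 0.14 and was not called, nor was the glutathione synthase Gss (-0.29 and 0.30). Gsr, which regenerates glutathione, rose in females by 0.26 and had a log2FC of 0.23 in males, not called, and Slc7a11 rose in females by 0.71 and had a log2FC of -0.18 in males, not called.

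Glutathione peroxidases and superoxide dismutases rose in both sexes, with 5 of the 6 genes of that group called and catalase (Cat) not called at a log2FC of -0.08 and 0.07. Gpx4, which reduces lipid hydroperoxides and guards against ferroptosis, was at 72.1 to 91.2 CPM in female WT CIH and 105 to 151 CPM in 5XFAD CIH libraries, and at 87.3 to 100 against 176 to 402 CPM in males. Its log2FC was 0.61 ± 0.10 (adjusted p = 0.000208) and 1.48 ± 0.17 (adjusted p = 7.83e-06). Gpx1 rose by 0.41 ± 0.08 and 1.10 ± 0.13, and Sod1, the cytosolic superoxide dismutase, by 0.56 ± 0.11 and 1.27 ± 0.16, each with no overlap of libraries. Gpx3, the secreted form, was low, at 4.83 to 9.05 CPM in female WT CIH and 10.4 to 23.5 CPM in 5XFAD CIH libraries (log2FC 1.52 ± 0.23, adjusted p = 0.000106), and at 4.69 to 9.31 against 9.22 to 18.9 CPM in males, where the libraries overlapped (0.70 ± 0.23, adjusted p = 0.0187). The mitochondrial Sod2 rose by 0.47 and 0.69.

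The 3 regulators, Nfe2l2, Keap1 and Sqstm1, rose in both sexes. Nfe2l2 was at 228, 219, 195, 229 and 202 CPM in female WT CIH and at 308, 284, 289, 260.5 and 283 CPM in 5XFAD CIH libraries, without overlap (log2FC 0.42 ± 0.06, adjusted p = 0.0001). In males it was at 202, 234, 234, 244 and 244 CPM against 333, 310, 238, 278 and 273 CPM, where 1 5XFAD library lay within the WT range (0.32 ± 0.10, adjusted p = 0.0192). With libraries scaled by their total alone this male value was -0.055 and not called. Keap1 rose by 0.33 ± 0.08 (adjusted p = 0.0043) and 0.58 ± 0.13 (adjusted p = 0.00206), and Sqstm1 by 0.60 and 0.98. Hmox1, the heme oxygenase that is a classic NRF2 target, was at 29.8, 32.9, 80.7, 41.1 and 35.2 CPM in female WT CIH and at 66.6, 99.3, 82.9, 70.1 and 75.7 CPM in 5XFAD CIH libraries, so that 1 WT library overlapped (0.86 ± 0.23, adjusted p = 0.00725). That library, F WT CIH 3, also held 4494 CPM of isolation response genes, against 1439 to 1880 CPM in the other 4 of its group. In males the groups were apart, at 37.4, 31.8, 37.7, 47.7 and 45.1 against 121, 91.0, 87.2, 86.9 and 94.8 CPM (1.28 ± 0.13, adjusted p = 2.28e-06). Hmox2, the constitutive heme oxygenase, had a log2FC of -0.07 and 0.20, not called. The biliverdin reductase Blvrb had a log2FC of 0.00 in females, not called, and rose by 0.82 in males.

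Enzymes that supply NADPH, G6pdx and Pgd of the pentose phosphate pathway, rose by 0.42 and 0.47 in females and by 0.70 and 0.52 in males. Among the glutathione transferases Gstm1 rose by 0.67 and 0.95 and Gstp1 by 0.35 and 0.91. Gstp1 and Gstm1 have close relatives in tandem, and how the counting shared reads among them is not given in the sources used here, so these values are uncertain. The membrane-bound Mgst1 was near the filter, at 0.225 to 2.91 CPM in the 4 CIH groups, and its log2FC of -0.47 ± 0.29 and -0.70 ± 0.46 was not called.

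**Figure D4:**
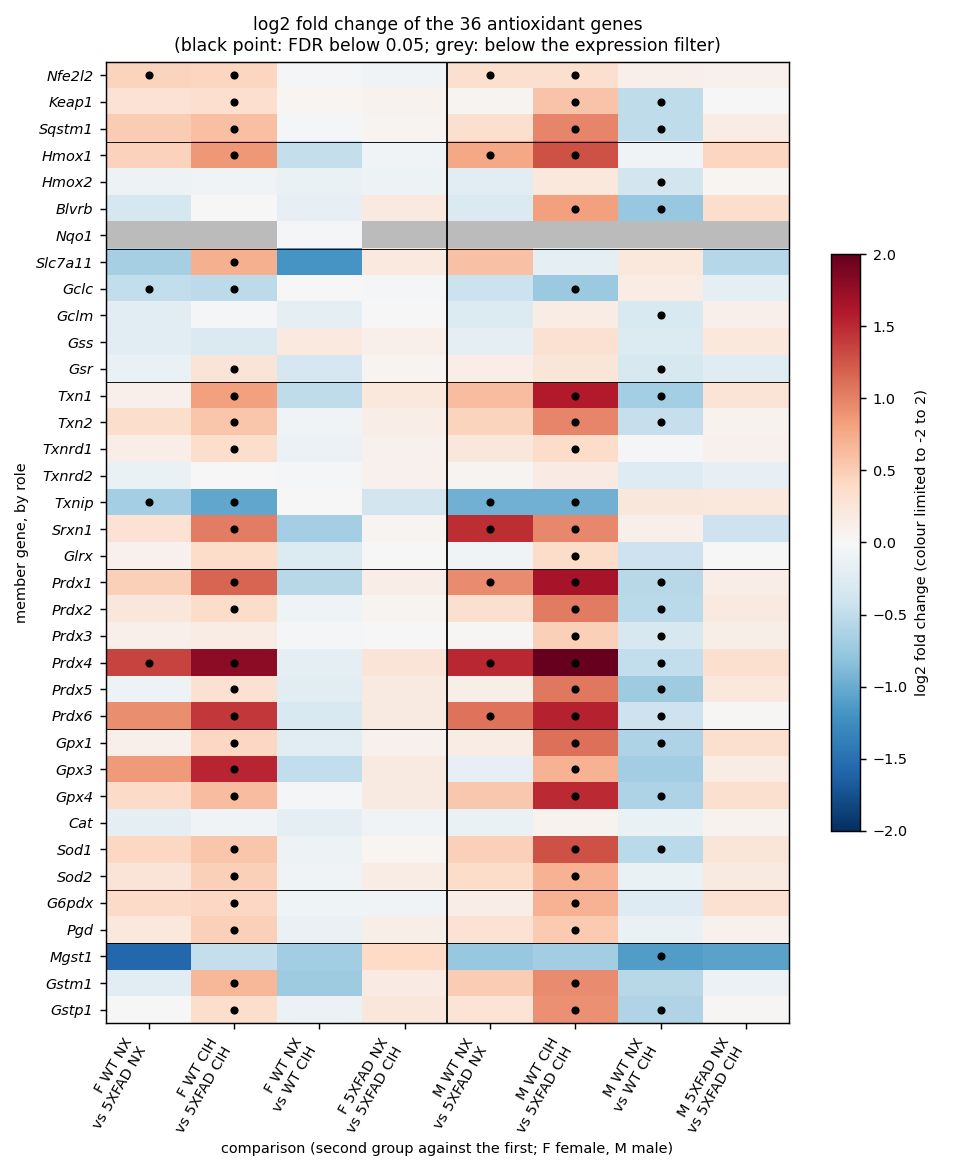
Colour gives the log2 fold change of each of the 36 members (rows, grouped by role) in the 8 pairwise comparisons (columns), a black point marks FDR below 0.05 and grey a gene below the expression filter. The columns of 5XFAD against WT under CIH carry 24 and 25 higher members, the male column of WT CIH against WT NX carries 19 lower ones, and the other 3 columns of CIH against NX carry 0.

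Under normoxia the same genotype comparison called 2 members higher (Nfe2l2 and Prdx4) and 2 lower (Gclc and Txnip) of 35 in females, against 7.26% of all genes higher and 6.61% lower. In males it called 6 higher (Nfe2l2, Hmox1, Srxn1, Prdx1, Prdx4 and Prdx6) and 1 lower (Txnip), against 10.4% and 7.37%. The female share was thus near that of all genes. Other cells' markers moved here too, with astrocyte markers at 134 to 185 against 373 to 1009 CPM and border macrophage markers at 229 to 325 against 101 to 144 CPM in males. In females these were at 168 to 225 against 139.5 to 359 CPM and at 175 to 332 against 85.3 to 158.5 CPM. Erythroid medians went from 152 to 51.1 CPM in males and from 48.3 to 14.3 CPM in females, endothelial medians from 137 to 183 and from 78.2 to 198 CPM, and oligodendrocyte medians from 224 to 408.5 and from 237 to 293 CPM. Neutrophil medians went from 430.2 to 181 CPM in males and from 56.6 to 29.4 CPM in females, neuron medians from 13.2 to 10.7 and from 8.89 to 2.53 CPM, and isolation response medians down from 1268 to 909 CPM in males and up from 1802 to 2844 CPM in females. Their part was not tested. The median log2FC was 0.11 in females and 0.23 in males. Prdx4 was at 20.8, 20.4, 22.99 and 19 CPM in female WT NX libraries and at 58.3, 67.5, 52.2, 16.6 and 71.4 CPM in 5XFAD NX. The value of 16.6 CPM is that of the library labelled F 5XFAD NX 4, which lay below every WT library, and the log2FC was 1.35 ± 0.34 (adjusted p = 0.0347). In males Prdx4 was at 34.2, 32.6, 24.3, 41.5 and 35.1 CPM in WT NX and at 123, 105, 113, 69.6 and 63.4 CPM in 5XFAD NX, with no overlap (1.501 ± 0.20, adjusted p = 0.00023). Srxn1 was at 3.71, 3.28, 5.01, 4.50 and 3.21 CPM in male WT NX and at 7.60, 17.3, 11.5, 9.05 and 9.29 CPM in 5XFAD NX libraries (1.47 ± 0.26, adjusted p = 0.00149). In females it was at 16.4, 4.75, 5.22 and 5.26 CPM in WT NX and at 12.04, 12.4, 8.69, 4.35 and 11.4 CPM in 5XFAD NX, the high WT value being that of F WT NX 1 and the low 5XFAD value that of F 5XFAD NX 4 (0.30, adjusted p = 0.649). Txnip fell by 0.68 ± 0.17 in females (523 to 553 CPM against 254 to 483 CPM, adjusted p = 0.0366) and by 0.96 ± 0.11 in males (445 to 567 against 231 to 281 CPM, adjusted p = 5.06e-05).

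The female count in normoxia depended on single libraries. In females, leaving out F 5XFAD NX 4 gave 12 members higher and 2 lower, against 21.8% and 22.2% of all genes. Leaving out F WT NX 1 as well gave 20 higher and 2 lower of 35 (median log2FC 0.39). Of all genes, 22.7% were then higher and 22.4% lower. This choice was made after seeing the data, from plaque-associated markers that are no members. Without both, Hmox1 had a log2FC of 1.32, Srxn1 of 1.12, Prdx1 of 1.06 and Prdx6 of 1.33, each called, where with all libraries they were at 0.45, 0.30, 0.48 and 0.92 and not called. No member called with all libraries was lost. Leaving out F WT NX 1 alone gave 1 higher and 1 lower, against 3.44% and 3.08% of all genes. Leaving out any 1 of the other 7 libraries gave 0 members, with at most 2.07% of all genes higher and 1.62% lower. In males, leaving out any 1 of the 10 libraries gave 6 to 10 members called in all, with 8.36% to 11.5% of all genes higher and 5.77% to 7.51% lower. Leaving out M 5XFAD NX 4 and 5 together gave 18 higher and 2 lower (median 0.44), beside 17.9% and 15.6% of all genes. This is a description alone because the members' own level was in view when these libraries were picked. With libraries scaled by their total alone the calls were 1 higher and 3 lower in females, against 4.71% and 5.48% of all genes, and 5 higher and 4 lower in males, against 7.25% and 14.7%.

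**Figure D5:**
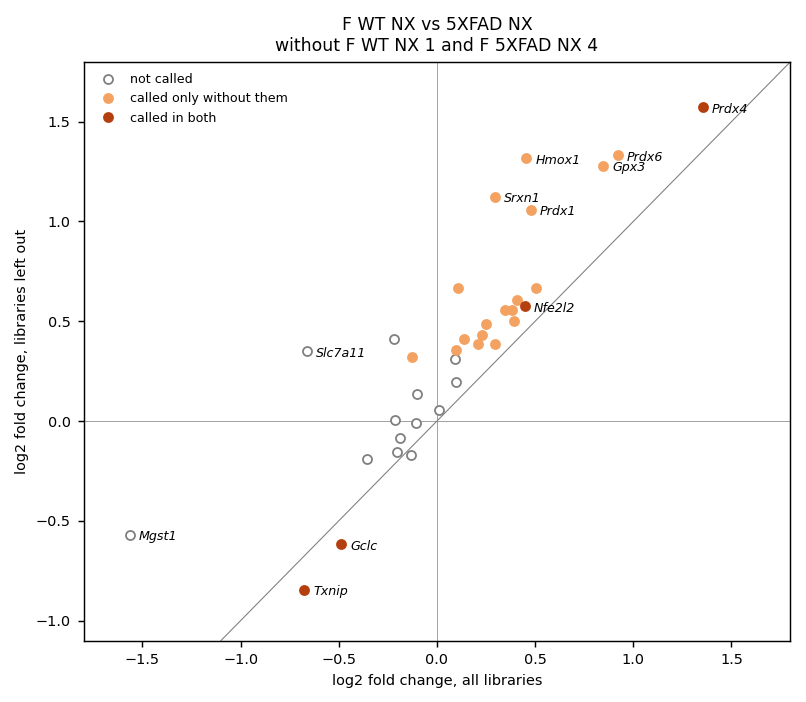
For female 5XFAD NX against WT NX mice, the log2 fold change of each member tested with all libraries (x axis) is set against that without F WT NX 1 and F 5XFAD NX 4 (y axis), with the line of equality in grey. Filled points are called, dark in both fits and light without those libraries alone, and 20 higher members are called where 2 were with all libraries.

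CIH against NX within WT mice asks what the hypoxia did without amyloid. In male WT mice 19 of 35 members were lower after CIH than in normoxia and 0 were higher, against 15% of all genes lower and 13.6% higher, with a median log2FC of -0.42 (-0.01 over all genes). All 6 peroxiredoxins fell, as did Gpx1, Gpx4 and Sod1, the thioredoxins Txn1 and Txn2, the regulators Keap1 and Sqstm1, and Hmox2, Blvrb, Gclm, Gsr, Gstp1 and Mgst1. Prdx5 was at 124, 138, 126, 167 and 160 CPM in male WT NX and at 94.5, 85.2, 89.8, 83.8 and 83.4 CPM in WT CIH libraries, so that every CIH library was below every NX library (log2FC -0.71 ± 0.09, adjusted p = 0.00027). Gpx4 was at 128, 131, 127, 175 and 158 CPM against 96.9, 87.3, 100, 92.0 and 91.7 CPM (-0.62 ± 0.10, adjusted p = 0.000541), and Prdx1 at 109, 106, 128, 159 and 147 CPM against 86.3, 82.5, 89.7, 87.3 and 95.3 CPM (-0.55 ± 0.11, adjusted p = 0.00194), again without overlap. Sod1 fell from 81.4 to 110 CPM to 59.7 to 66.9 CPM, and Gpx1 from 194 to 334 CPM to 152 to 187 CPM. Mgst1 fell from 3.82 to 8.15 CPM to 1.38 to 2.91 CPM, the 1 member past an absolute log2FC of 1 (-1.11 ± 0.29, adjusted p = 0.00947). That is 2.86% of the members tested, against 0.881% of all genes lower and 1.63% higher past that limit. Keap1 was at 43.7 to 66.8 CPM against 28.1 to 44.6 CPM (-0.50 ± 0.13, adjusted p = 0.0105), and Nfe2l2 at 194 to 232 against 202 to 244 CPM, not called at a log2FC of 0.11. Of 14 textbook NRF2 targets tested, 6 fell (Gclm, Gsr, Txn1, Prdx1, Sqstm1 and Blvrb) and 8 were not called, among them Hmox1 (-0.07), Srxn1 (0.10) and Txnrd1 (-0.03).

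Over all genes, fold changes in this comparison went with gene length. For the 14983 genes tested in male WT mice, log2FC and transcript length had a Spearman correlation of 0.362 as a description across genes of the same libraries, genes under the lower quartile of length had a median of -0.33 and those above the upper quartile of 0.22, and 12 of the 35 members were in the first class and 4 in the last. With the trend on length taken out of each library, 14 members were lower and 1 higher, against 9.7% and 8.84% of all genes, and the members' median was -0.27. Prdx3 then had a log2FC of 0.0093, no longer below 0. With all 4 male groups in one fit, which sets the spread by the 5XFAD libraries too, 0 members and 0 genes were called, with 4437 genes at an unadjusted p below 0.05. Marker sums of other cells moved in this comparison as well. Neutrophil markers were at 235 to 1211 CPM in WT NX and 107 to 322 CPM in WT CIH, and erythroid markers at 63.6 to 234 and 48.2 to 119 CPM. Endothelial markers were at 50.02 to 196 and 59.6 to 132 CPM, astrocyte markers at 134 to 185 and 156 to 225 CPM, and plaque-associated markers at 110 to 133 and 78.9 to 101 CPM without overlap. Their part in the result was not tested.

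In female WT mice 0 of 36 members were called after CIH, among 0% of all genes. At an unadjusted p below 0.05, 4 members were lower (Slc7a11, Prdx1, Prdx4 and Gstm1) and 0 higher, against 3.87% of all genes, and DESeq2 and edgeR's likelihood ratio test called 0 members. Without F WT NX 1 the count stayed at 0, no member had an unadjusted p below 0.05 (2.47% of all genes), and the members' median went from -0.14 to -0.04. Slc7a11, Gstm1 and Prdx1 were at 25.6, 19.5 and 190.3 CPM in F WT NX 1 and at 5.09 to 6.14, 6.32 to 9.27 and 66.6 to 98.6 CPM in the other 3 libraries of that group. In 5XFAD mice 0 of 35 members were called after CIH in either sex, among 0% of all genes, and DESeq2 and the likelihood ratio test also called 0 members. At an unadjusted p below 0.05 these were 0 members in females, against 3.22% of all genes, and 2 in males (Hmox1 and G6pdx, both higher), against 3.3%. Without F 5XFAD NX 4 they were 3 in females (Nfe2l2, Hmox2 and G6pdx, all lower), against 7.47% of all genes, and without M 5XFAD NX 4 and 5 they were 2 others in males (Txnrd2 and Mgst1, both lower), against 9.11%. Hmox1 was at 82.1, 83.6, 80.8, 50.5 and 60.04 CPM in male 5XFAD NX and 121, 91.0, 87.2, 86.9 and 94.8 CPM in 5XFAD CIH libraries, with no overlap and a log2FC of 0.43, not called, which was 0.24 without M 5XFAD NX 4 and 5. Isolation response genes summed to 694 to 1126 CPM in the first group and 1084 to 2520 CPM in the second (medians 909 and 1164 CPM), and M 5XFAD CIH 1 was the highest library for them and for Hmox1. Endothelial markers were at 163 to 225.5 and 106 to 167 CPM there, and their part and that of the isolation response were not tested. The members' median was 0.09 in females (-0.03 without F 5XFAD NX 4) and 0.10 in males (-0.09 without M 5XFAD NX 4 and 5). Length went with log2FC over all genes in this comparison too (Spearman -0.24 in females and -0.28 in males, across genes). Genes under the lower quartile of length, where 18 of the 35 members were in females and 12 of 35 in males, had medians of 0.08 and 0.11, close to those of the members, and genes above the upper quartile had medians of -0.05 and -0.10.

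The interaction of genotype and treatment tests directly whether the log2FC of 5XFAD against WT was different under CIH and in normoxia. In both sexes 0 members were called, of 36 in females and 35 in males, among 0% of all genes. In males 15 members had an unadjusted p below 0.05, all with a higher log2FC under CIH, where 24.4% of all genes had such a p in either direction, and the members' median was 0.44 (-0.04 over all genes). Here too value and length went together (Spearman -0.347 across genes), with a median of 0.38 under the lower quartile of length, where 11 of the 35 members were, and -0.34 above the upper quartile. Blvrb had an interaction of 1.11 ± 0.27 (adjusted p = 0.117), Gpx1 of 0.94 ± 0.29 (adjusted p = 0.118), Gpx4 of 0.94 ± 0.32 (adjusted p = 0.123), Prdx5 of 0.93 ± 0.32 (adjusted p = 0.124) and Prdx4 of 0.81 ± 0.29 (adjusted p = 0.126). DESeq2 called 7 members higher. Of the genes to which it gave an adjusted p, it called 7.12% higher and 3.73% lower. The likelihood ratio test of edgeR called 1 (Blvrb), with 0.79% and 0.778% of all genes. Without M 5XFAD NX 4 and 5, 8 members had an unadjusted p below 0.05, all with a higher log2FC under CIH, against 10.4% of all genes in either direction, and the median was 0.28. The interaction was then 0.77 for Blvrb, 0.60 for Gpx1, 0.58 for Gpx4, 0.56 for Prdx5 and 0.54 for Prdx4. Nfe2l2 (-0.02 ± 0.14) and Txnip (-0.02 ± 0.13) had interactions near 0 in males, which were -0.07 and -0.09 without M 5XFAD NX 4 and 5. In females 2 members (Slc7a11 and Gstm1) had an unadjusted p below 0.05, against 3.78% of all genes. Without F WT NX 1 and F 5XFAD NX 4 no member had one, against 4.66% of all genes, and the median went from 0.23 to 0.00. The interaction of Slc7a11 then went from 1.36 to 0.34 and that of Gstm1 from 0.88 to 0.23.

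Lists that cut across these roles were counted as well. Among 14 textbook NRF2 targets tested, 11 rose and 1 fell (Gclc) in female 5XFAD CIH against WT CIH mice and 10 rose and 1 fell in males, with medians of 0.53 and 0.76. Of the 5 mitochondrial members 3 rose in females and 4 in males, with medians of 0.31 and 0.69. These shares stand beside 26.2% higher and 25.7% lower of all genes in females and 25.3% and 23.7% in males, as do those that follow. A wider list of 55 other genes of glutathione, thioredoxin and NADPH metabolism and NRF2 partners was also counted. Under CIH, 19 of its 50 genes tested were higher and 8 lower in female 5XFAD mice, with a median of 0.08, and 23 of 52 higher and 7 lower in males, with a median of 0.30. Maff, a small MAF protein that can pair with NRF2, rose by 3.30 ± 0.25 in females and 4.84 ± 0.45 in males, while Mafg, another small MAF protein, fell by 0.25 and 0.35. Ephx1, the microsomal epoxide hydrolase, rose by 2.17 ± 0.12 and 2.53 ± 0.11. The glutathione transferases Mgst3 (1.47 and 2.00) and Gsto1 (1.32 and 1.90) and Tigar (1.60 and 1.40), which diverts glucose to the pentose phosphate pathway, rose in both sexes. Ggt5, a gamma-glutamyl transferase, fell by 1.33 and 1.06. Bach1, the repressor that competes with NRF2 at its element, was called lower in both. In male WT mice after CIH 20 of 52 were called lower and 2 higher (Bach1 and Sesn1), against 15% and 13.6% of all genes. This is the comparison in which fold changes went with gene length and which had 0 calls with all 4 groups in one fit.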

How the data were processed

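RNA of CD11b+ cerebral cells was measured by bulk RNA sequencing in 39 libraries, and the study states independent samples for each group. Per the labels and methods, the authors aligned reads to GRCm38/mm10 (HISAT2 in the submitters' processing notes) and deposited 1 table of gene counts and 1 of FPKM for each sex. The counting tool, annotation and use of strand are not given in the sources used here. The deposited counts were whole numbers without normalisation. The deposited FPKM were counts per length and total, in males times a factor of each library (0.831 to 1.26), and served only to order members within a group. The members and gene lists were chosen with earlier results of these data known.

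For each pair of groups within a sex, the quasi-likelihood F test of edgeR 4.0.16 (R 4.3.3, TMM factors) was run on genes that exceeded 1 CPM in 3 or more of the compared libraries, with Benjamini-Hochberg adjustment over all of them and FDR below 0.05 as the call. The interaction used all 4 groups of a sex. SE is the absolute log2FC over the square root of F. Every member is accounted for by role. Nfe2l2, Keap1 and called members with an absolute log2FC above 0.5, at most 16 in all, were picked for closer description. Their values are given by library, as ranges or as log2FC, and not in every comparison. Other genes named with values or calls, among them Gclc, Slc7a11, Gstm1, Blvrb, Bach1, Mafg and Sesn1, were chosen after their values were seen. Alternatives were DESeq2 1.42.0, the likelihood ratio test, other scalings and filters, all groups in one fit, a replicate block, a length correction and leaving out libraries. The scripts were tested on simulated data. No 2 libraries agreed within sampling noise. Promoters came from RefSeq, with motifs searched as exact letters.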

Additional observations from a re-analysis of the deposited data

Results flagged for a closer look

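Dixon's test over the 16 members picked for closer description in 8 groups (128 tests) singled out 10 values, where chance alone marks about 5% of groups. F WT NX 1 was the library singled out for 3 members. In it Srxn1 was at 16.4 CPM against 4.75 to 5.26 in the other 3 libraries, Hmox1 at 134 CPM against 32.6 to 39.2, and Mgst1 at 7.94 CPM against 0.405 to 1.69. The library labelled F 5XFAD NX 4 had Hmox1 at 53.2 CPM against 88.4 to 95.0 in the rest of its group, and F WT CIH 3 had Hmox1 at 80.7 CPM against 29.8 to 41.1. Txnip was at 584 CPM in F WT CIH 4, against 516 to 535. In males Nfe2l2 was at 202 CPM in M WT CIH 1 against 233.5 to 244, and Hmox1 at 121 CPM in M 5XFAD CIH 1 against 86.9 to 94.8. Mgst1 was at 8.15 CPM in M WT NX 5 against 3.82 to 5.03, and at 8.33 CPM in M 5XFAD NX 2 against 0.532 to 2.63. Marker sums stood apart in several of these libraries too. Neutrophil markers were at 205 CPM in F WT NX 1 (40.1 to 71.9 in the rest of its group), at 1211 CPM in M WT NX 5 (235 to 833) and at 1285 CPM in M 5XFAD NX 2 (68.3 to 351), the 3 libraries singled out for Mgst1, and at 262 CPM in F 5XFAD NX 4 (9.91 to 59.0). Isolation response genes were at 4494 CPM in F WT CIH 3 (1439 to 1880) and at 2520 CPM in M 5XFAD CIH 1 (1084 to 1435), which had high Hmox1, but also at 3494 CPM in F 5XFAD NX 4 (1852 to 2993), which had low Hmox1. They were at 1801 CPM in M WT CIH 1 (1013 to 1401). In F WT CIH 4 erythroid markers were at 106 CPM (2.52 to 43.4). The part of these markers in the values was not tested.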

How the results depend on the processing

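Under CIH the total of members called between genotypes stayed within 1.5 times under each test, scaling, filter and single library left out, though scaling by library total alone moved the split to 19 higher and 7 lower in females and 17 and 3 in males. Calls with an absolute log2FC above 1 were 6 of 26 in females and 10 of 27 in males, 1 of 4 (female) and 3 of 7 (male) in normoxia, and 1 of 19 for CIH in male WT mice. In normoxia 2.86% of members tested were past that limit and higher in females and 8.57% in males, against 4.4% and 5.94% of all genes. In the lower direction it was 0%, against 1.59% and 2.31%. For CIH in male WT mice 2.86% of members were lower and 0% higher, against 0.881% and 1.63% of all genes. In females in normoxia DESeq2 called 7 members (all genes 13.3% higher and 11% lower), all 4 groups in one fit 9 (16.3% and 15.7%), the replicate block 0 with or without the length correction (0.0482% and 0% without it), leaving out F WT NX 1 and F 5XFAD NX 4 together 22 (median 0.39), and leaving out single libraries 0 to 14, the highest without F 5XFAD NX 4. The replicate numbers are no pairs by design, and the deviations of same-numbered libraries correlated at -0.494 to 0.349, with 0 to 3 pairs of a comparison above 0.1. In the other comparisons the block left every count within 1.5 times of the reported one. In males in normoxia the count was 20 (median 0.44) without M 5XFAD NX 4 and 5, and the median of CIH in 5XFAD mice was then -0.09. For CIH in male WT mice all 4 groups in one fit called 0. The male interaction had 7 calls by DESeq2, 1 by the likelihood ratio test, 10 without a filter on low counts (2.28% and 2.29% of all genes) and 0 to 4 with single libraries left out. The 4 were called only without M 5XFAD NX 1, at adjusted p from 0.0466 to 0.0493 in the quasi-likelihood F test. The share of all genes called in that fit is not given here, so the 4 calls say nothing about the members in particular. The female median was 0.00 without F WT NX 1 and F 5XFAD NX 4. Scaling by library total alone took the male median under CIH to 0.30 and turned Nfe2l2 (-0.055), Txnrd1 (-0.011) and Glrx (-0.020), and the length correction turned Prdx3 in male WT mice (0.0093, and 0.0071 with the replicate block). Over 1693 values of called members under an alternative, 1516 kept direction and call, 172 lost the call and 5 turned. The causes were not tested. Counts of Nqo1, Mgst1 and Slc7a11 limit what depth can show.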
